A study of Bos taurus with 32 samples.

Results

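The genes described are those whose annotated symbol is PSM followed by a letter from A to G and a number, which is how subunits and helpers of the proteasome are named. The rule found 40 genes, measured by 46 probe sets, among the 9155 genes with 1 symbol on an Affymetrix bovine expression array. A probe set is a group of short probes read out as 1 value; where a gene had more than 1 (6 of the 40 genes), the one with the highest mean over all arrays was used. Liver RNA came from biopsies of 12 Ayrshire dairy cows, of which 6 received a high-energy diet (HIGH) and 6 a controlled-energy diet (CON) during the 6 weeks that led up to the predicted calving date. The first biopsy preceded that date (-8 d) and the later ones followed the actual calving (1 d, then 9 d). HIGH contributed 5 arrays on the first day and 6 on each later day, whereas CON contributed 5, then 4, then 6, and of the 32 arrays those of 8 cows covered all 3 days. Day, calving and time since the diets ended cannot be told apart. Age was not given in the sources used here.

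The proteasome is the cell's main machine for breaking down proteins tagged with ubiquitin. Its 20S core is a barrel of alpha rings (PSMA genes), which gate the entrance, and beta rings (PSMB genes), of which PSMB5, PSMB6 and PSMB7 carry the cutting sites. The 19S regulatory particle caps the barrel: ATPases (PSMC genes) unfold the substrate, and the other base and lid subunits (PSMD genes) bind ubiquitin chains and remove them. Under interferon, and constantly in many immune cells, PSMB8, PSMB9 and PSMB10 are built in instead of PSMB5, PSMB6 and PSMB7 to give the immunoproteasome, which supplies peptides for MHC class I presentation, and the PA28 cap made of PSME1 and PSME2 is induced with it. PSME4 (PA200) is another cap, PSMF1 (PI31) binds the core and inhibits it in vitro, and PSMG1, PSMG2 and PSMG3 are chaperones of core assembly. In the liver the proteasome also clears proteins rejected by the endoplasmic reticulum, where hepatocytes make most plasma proteins.

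The 40 genes were 6 alpha subunits, 3 constitutive catalytic and 4 structural beta subunits, 3 immunosubunits, 6 ATPases, 3 other base and 4 lid subunits, 3 chaperones of 19S assembly, 4 activators or inhibitors and 3 chaperones of core assembly. The last gene, PSME3IP1, matches the symbol pattern but encodes a protein that interacts with the PA28-gamma cap and is no proteasome part. PSMA2, PSMA8, PSMB11, PSMD3, PSMD7, PSMD8, PSMD12, PSME3, PSMG4 and PSMC3IP were not analysed here. No filter on low values was applied, so all 40 genes entered every test.

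Values are log2 RMA values (RMA corrects background, brings arrays to 1 distribution and summarises the probes of a probe set), so a difference of 1 is a doubling of signal. Array medians lay between 5.87 and 5.94. The 11 hepatocyte markers had a list mean between 12.53 and 12.88 in every array, so the label liver was borne out. Markers of T and NK cells (14 genes, mean per array up to 6.25), of neutrophils (6 genes, 6.23 to 8.70) and of Kupffer cells and macrophages (11 genes, 9.41 to 10.24) gave signal too. In bulk samples, fewer cells of a type and less RNA per cell cannot be told apart. The 3' minus 5' signal of the EEF1A1 control probes, a measure of RNA integrity and labelling, averaged -0.68 ± 0.12 on the first day (SD, n = 10), -1.07 ± 0.15 on the day after calving (n = 10) and -0.81 ± 0.13 on the last day (n = 12). For the GAPDH controls it was 0.54 ± 0.06, 0.53 ± 0.13 and 0.58 ± 0.06 in that order of days. For actin, 1 array (CON 9 d, replicate 6) stood apart at 3.87, where the arrays at -8 d reached 2.20 and those at 1 d reached 1.92.

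Most proteasome genes varied little between cows. The median within-group SD of the 40 genes was 0.13, against 0.16 over the 9155 genes. PSMB7, the trypsin-like catalytic subunit of the standard core, had an SD of 0.07 and was at percentile 0.98 of all genes. The 3 immunosubunits were among the 4 most variable members: PSMB9 had an SD of 0.33 (percentile 91.3), PSMF1 0.27 (85.3), PSMB8 0.27 (85.2) and PSMB10 0.24 (80.4). None of the 40 genes had groups that separated without overlap in any of the 6 pairwise day or diet comparisons made. How many of all genes did so was not counted.

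How the genes changed across calving was read from 1 d against -8 d, averaged over the diets with equal weight. Relative to -8 d, 11 of the 40 genes were higher at 1 d and 1 was lower (limma, Benjamini-Hochberg adjusted p under 0.05 over 24016 probe sets). Over all probe sets tested, 11.5% were higher and 11.6% were lower, and over genes 16.5% and 12.3%. The median change of the 40 genes was 0.07 on the log2 scale and that of all genes was 0.00. The largest rise was 0.37, or 1.29-fold, so the changes were small.

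In the 20S core, 3 of the 13 standard subunits rose (23.1%, against 16.5% of all genes) and none fell. An unadjusted p under 0.05 was found for 5 of the 13, against 34.4% of all probe sets. PSMA5 at -8 d was 9.76, 9.93, 10.05, 9.87 and 9.91 in HIGH livers, against 10.20, 9.89, 9.85, 9.97 and 10.09 in CON livers. PSMA5 at 1 d was 10 to 10.43 with a median of 10.31 in HIGH livers, against 10.26, 10.24, 10.51 and 10.44 in CON livers. PSMA5 at 9 d was 10.05 to 10.55 with a median of 10.24 in HIGH livers, against 10.10 to 10.42 with a median of 10.26 in CON livers. PSMA5, an alpha subunit, lay mostly above 10.2 at 1 d and mostly below 10.1 at -8 d, and it stayed high at 9 d, with the ranges overlapping. It rose by 0.37 (SE 0.06, adjusted p = 6.77e-05) and was higher at 1 d in 8 of 8 cows with both days. PSMA4, also of the alpha ring, rose by 0.29 (SE 0.07, adjusted p = 0.00263), again in 8 of 8 cows.

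PSMB5, the chymotrypsin-like catalytic subunit, was the only one of the 3 constitutive catalytic genes to pass. PSMB5 at -8 d was 11.31, 11.44, 11.35, 11.27 and 11.39 in HIGH livers, against 11.44, 11.43, 11.34, 11.24 and 11.40 in CON livers. PSMB5 at 1 d was 11.41 to 12.15 with a median of 11.63 in HIGH livers, against 11.68, 11.40, 11.54 and 11.62 in CON livers. PSMB5 at 9 d was 11.35 to 11.58 with a median of 11.45 in HIGH livers, against 11.32 to 11.44 with a median of 11.39 in CON livers. The rise was uneven: 2 HIGH livers at 1 d (replicates 3 and 6) stood near 12, while the lowest livers at 1 d were within the range of -8 d. PSMB5 rose by 0.28 (SE 0.06, adjusted p = 0.00162), in 7 of 8 cows. PSMB7 changed by 0.10 (SE 0.04, adjusted p = 0.0656) and PSMB6, the caspase-like subunit, by 0.07 (SE 0.06, adjusted p = 0.461). PSMB7 did pass with array weights (0.11, adjusted p = 0.0361), with a filter on probe sets of low mean (0.10, adjusted p = 0.0328) and in 4 of the fits that left out 1 array. None of the 4 structural beta subunits passed, with changes between -0.05 and 0.07.

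In the 19S particle, 3 of 13 subunits rose (23.1%, against 16.5% of all genes) and none fell. PSMD2, a large scaffold of the base that docks ubiquitin shuttle proteins, rose by 0.18 (SE 0.04, adjusted p = 7.98e-04), in 8 of 8 cows. PSMD14, the lid enzyme that cuts ubiquitin chains off the substrate, rose by 0.22 (SE 0.06, adjusted p = 0.00413), in 8 of 8 cows. The lid subunit PSMD6 rose by 0.18 (SE 0.05, adjusted p = 0.0155), in 6 of 8 cows. This gene's second probe set changed by -0.10 (SE 0.10), but its mean of 4.46 lay below the array medians, against 8.92 for the one used. The call ended when the probe sets were averaged (0.04, adjusted p = 0.667) or when CON 1 d replicate 3 was left out (0.14, adjusted p = 0.0628). None of the 6 ATPases passed, and PSMC1 had the lowest value, -0.13 (SE 0.05, adjusted p = 0.0678). For PSMC5 and PSMC6 the second probe set did pass, at 0.20 (adjusted p = 0.00375) and 0.25 (adjusted p = 0.00352), against 0.11 and 0.00 for the ones used. PSMD10 (gankyrin, a chaperone of 19S assembly) rose by 0.23 (SE 0.07, adjusted p = 0.0128), in 7 of 8 cows. With only the 8 cows sampled on all days, the calls of PSMD10 (0.15, adjusted p = 0.215) and PSMD6 (0.16, adjusted p = 0.105) ended.

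Among the other caps and helpers, PSME1, PSMF1 and PSMG2 rose and PSMG1 fell. PSME1 at -8 d was 10.75, 10.98, 10.95, 10.84 and 10.98 in HIGH livers, against 10.91, 10.83, 10.87, 10.83 and 11.03 in CON livers. PSME1 at 1 d was 11 to 11.41 with a median of 11.15 in HIGH livers, against 11, 10.70, 11.10 and 11.18 in CON livers. PSME1 at 9 d was 10.69 to 10.92 with a median of 10.77 in HIGH livers, against 10.52 to 10.90 with a median of 10.68 in CON livers. PSME1 was highest in HIGH livers at 1 d, and its lowest value was in a CON liver at 9 d. At 1 d it rose by 0.20 (SE 0.06, adjusted p = 0.0146), in 7 of 8 cows, and missed the threshold with only the cows of all 3 days (0.17, adjusted p = 0.0804). Its partner PSME2 changed by 0.00 (SE 0.06, adjusted p = 0.985), and it was higher in 4 of 8 cows and lower in 4.

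PSMG1 and PSMG2 form 1 chaperone pair that starts the alpha ring, and their changes had opposite signs. PSMG2 at -8 d was 9.35, 9.51, 9.61, 9.38 and 9.62 in HIGH livers, against 9.66, 9.48, 9.59, 9.62 and 9.57 in CON livers. PSMG2 at 1 d was 9.61 to 9.95 with a median of 9.88 in HIGH livers, against 9.74, 9.58, 9.93 and 9.89 in CON livers. PSMG2 at 9 d was 9.53 to 9.82 with a median of 9.75 in HIGH livers, against 9.71 to 9.95 with a median of 9.77 in CON livers. PSMG2 lay at or below 9.66 in all livers at -8 d and reached 9.95 at 1 d, with the ranges overlapping. It rose by 0.26 (SE 0.05, adjusted p = 5.51e-04), in 8 of 8 cows. PSMG1 fell by 0.14 (SE 0.05, adjusted p = 0.029), in 6 of 8 cows, and that call ended in 5 of the 20 fits that left out 1 array (adjusted p up to 0.0848), with cow fixed (adjusted p = 0.0678), with the cows of all 3 days (adjusted p = 0.0686) and with the compared groups alone (adjusted p = 0.0584). PSMG1 averaged 9.77 ± 0.07 in HIGH livers (SD, n = 6) and 9.71 ± 0.08 in CON livers (n = 4) at 1 d, against 9.91 ± 0.10 and 9.84 ± 0.14 (n = 5 each) at -8 d in the same order of diets.

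PSMF1 rose by 0.29 (SE 0.11, adjusted p = 0.0481), in 7 of 8 cows, and 2 livers stood apart. PSMF1 at -8 d was 8.88, 8.93, 9.19, 9.06 and 9.14 in HIGH livers, against 9.37, 8.92, 8.93, 8.84 and 9.07 in CON livers. PSMF1 at 1 d was 9.00 to 9.88 with a median of 9.25 in HIGH livers, against 10.04, 8.90, 9.41 and 8.93 in CON livers. PSMF1 at 9 d was 8.73 to 9.27 with a median of 9.11 in HIGH livers, against 8.89 to 9.32 with a median of 9.16 in CON livers. One CON liver at 10.04 and one HIGH liver at 9.88 stood well above all others at 1 d. The call ended in 14 of the 20 fits that left out 1 array, where the change ran from 0.17 to 0.36 and the adjusted p reached 0.195. It ended too without the replicate block (0.28, adjusted p = 0.0893), with array weights (0.25, adjusted p = 0.0686), with the cows of all 3 days (0.33, adjusted p = 0.0777) and with the compared groups alone (0.28, adjusted p = 0.0939). PSME3IP1, the gene that is no proteasome part, rose by 0.25 (SE 0.05, adjusted p = 9.13e-04), in 7 of 8 cows.

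The immunosubunits did not pass across calving. PSMB8 changed by -0.13 (SE 0.11, adjusted p = 0.469), PSMB9 by -0.05 (SE 0.14, adjusted p = 0.827) and PSMB10 by 0.06 (SE 0.10, adjusted p = 0.738). Their 95% intervals were -0.36 to 0.11, -0.33 to 0.22 and -0.15 to 0.26. Individual cows moved either way: the change of PSMB9 ran from -0.70 to 0.85 over 8 cows, being higher in 4 and lower in 4.

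**Figure D1:**
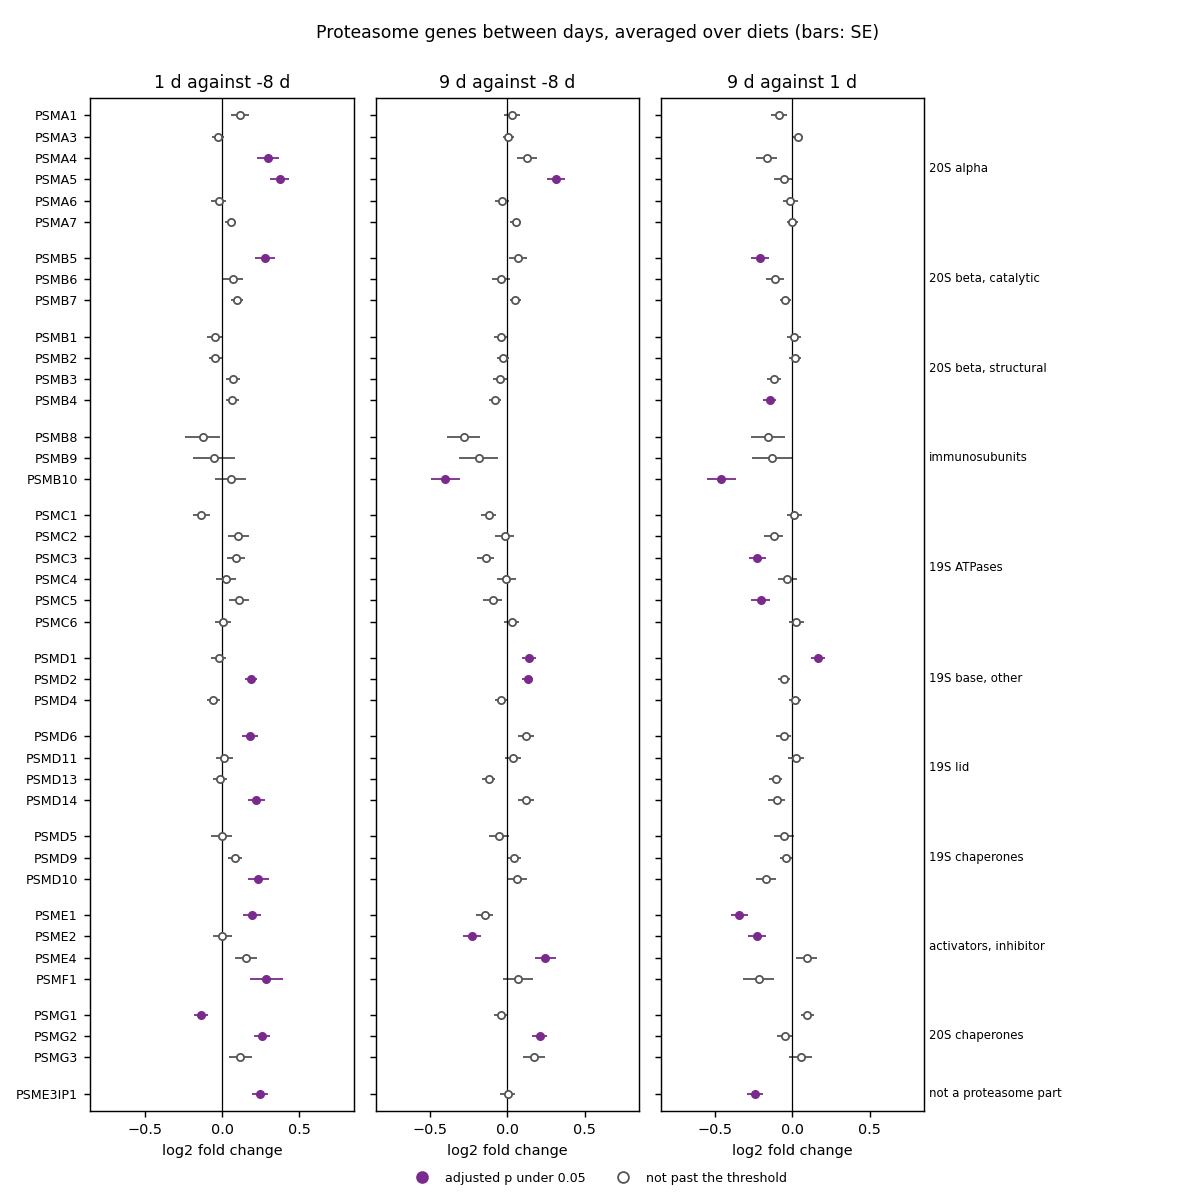
Log2 fold change between days for each of the 40 genes, averaged over the diets, with bars of 1 SE; rows are grouped by role and filled points passed the threshold. At 1 d against -8 d most filled points lie right of 0 (11 of 12), and at 9 d against 1 d most lie left of it (8 of 9), with PSMB10 farthest left at -0.46.

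By 9 d the immunosubunit PSMB10 and the cap subunit PSME2 were below their -8 d level, while 5 other genes were above it. The higher genes were PSMA5, PSME4, PSMG2, PSMD1 and PSMD2. So 5 of 40 were higher and 2 were lower, against 5.18% and 4.25% of all probe sets (7.79% and 5.08% of genes). The share that was lower, 5%, was near that of all genes. The median over the 40 genes was 0.00. This comparison uses the same -8 d arrays as the one before, and the same 9 d arrays as the one after, so the 3 day comparisons are not independent.

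PSMB10 replaces PSMB7 in the immunoproteasome. PSMB10 at -8 d was 7.98, 8.20, 8.18, 8.00 and 8.21 in HIGH livers, against 8.11, 7.92, 8.14, 7.89 and 8.20 in CON livers. PSMB10 at 1 d was 7.93 to 8.90 with a median of 8.31 in HIGH livers, against 8.02, 7.78, 7.90 and 8.05 in CON livers. PSMB10 at 9 d was 7.45 to 7.95 with a median of 7.79 in HIGH livers, against 7.26 to 8.14 with a median of 7.59 in CON livers. At -8 d all 10 livers lay between 7.89 and 8.21, whereas at 9 d 10 of the 12 lay below that range and 2 were inside it, HIGH replicate 1 at 7.95 and CON replicate 3 at 8.14. PSMB10 fell by 0.40 on the log2 scale (SE 0.09, adjusted p = 0.00505), to 0.76 of the -8 d signal. It was lower at 9 d in 9 of 10 cows and equal in 1.

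PSMB8 was -0.28 (SE 0.11, adjusted p = 0.0965) and PSMB9 was -0.18 (SE 0.13, adjusted p = 0.426) at 9 d against -8 d. PSMB8 at -8 d was 7.48, 7.75, 7.95, 7.83 and 7.42 in HIGH livers, against 7.54, 7.57, 7.49, 7.64 and 7.52 in CON livers. PSMB8 at 1 d was 7.14 to 8.27 with a median of 7.62 in HIGH livers, against 7.69, 7.36, 7.13 and 7.05 in CON livers. PSMB8 at 9 d was 7.12 to 7.54 with a median of 7.36 in HIGH livers, against 7.06 to 7.75 with a median of 7.26 in CON livers. PSMB8 tended to sit lower at 9 d but the ranges overlapped in both diets, and it was lower in 8 of 10 cows. Fits with array weights (-0.30, adjusted p = 0.0257) or with the compared groups alone (-0.28, adjusted p = 0.0194) put it past the threshold, as did leaving out CON 9 d replicate 3 (-0.33, adjusted p = 0.0456). PSMB9 at -8 d was 8.29, 8.37, 8.96, 8.49 and 8.30 in HIGH livers, against 8.52, 7.99, 8.25, 8.05 and 8.43 in CON livers. PSMB9 at 1 d was 7.80 to 9.14 with a median of 8.34 in HIGH livers, against 8.59, 8.07, 8.18 and 7.82 in CON livers. PSMB9 at 9 d was 7.96 to 8.33 with a median of 8.18 in HIGH livers, against 7.82 to 8.90 with a median of 8.15 in CON livers. PSMB9 overlapped widely between the days, with livers near 9 on all 3 of them.

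PSME2, the beta subunit of PA28, fell by 0.23 (SE 0.06, adjusted p = 0.0101), being lower in 9 of 10 cows and equal in 1. PSME2 at -8 d was 9.56, 9.69, 9.77, 9.49 and 9.72 in HIGH livers, against 9.52, 9.59, 9.71, 9.62 and 9.61 in CON livers. PSME2 at 1 d was 9.42 to 9.97 with a median of 9.74 in HIGH livers, against 9.48, 9.30, 9.77 and 9.62 in CON livers. PSME2 at 9 d was 9.24 to 9.51 with a median of 9.46 in HIGH livers, against 9.24 to 9.65 with a median of 9.31 in CON livers. At 9 d all HIGH livers were at or below 9.51 and 1 CON liver stood at 9.65, while at -8 d the lowest of 10 livers was 9.49. PSME1 was -0.15 (SE 0.05, adjusted p = 0.092), lower in 8 of 10 cows, and passed under array weights (-0.16, adjusted p = 0.0326) and with the compared groups alone (-0.14, adjusted p = 0.0269).

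Of the genes that rose, PSMA5 was 0.31 (SE 0.06, adjusted p = 6.83e-04) and PSMG2 was 0.21 (SE 0.05, adjusted p = 0.00581), both higher in 10 of 10 cows. PSME4, the PA200 cap, rose by 0.25 (SE 0.07, adjusted p = 0.0152), in 9 of 10 cows. Its mean was 8.59 ± 0.11 in HIGH livers and 8.61 ± 0.05 in CON livers (SD, n = 6 each) at 9 d, against 8.26 ± 0.11 and 8.43 ± 0.16 (n = 5 each) at -8 d in the same order of diets. PSMD2 rose by 0.13 (SE 0.04, adjusted p = 0.0191), in 9 of 10 cows. PSMD1, the other large scaffold of the base, rose by 0.14 (SE 0.05, adjusted p = 0.0442), in 9 of 10 cows, and this call ended in 15 of the 22 fits that left out 1 array (0.12 to 0.17, adjusted p up to 0.108) and without the replicate block (0.14, adjusted p = 0.0723) or with cow as a fixed replicate block (0.15, adjusted p = 0.0695). With arrays centred on their median it was 0.15 (adjusted p = 0.0507). PSMB5 (0.07), PSMB6 (-0.04) and PSMB7 (0.05) did not pass.

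With only the 8 cows sampled on all days, PSMB10 was -0.35 (adjusted p = 0.0747) and PSME2 was -0.21 (adjusted p = 0.141), and 2 of the 7 calls at 9 d against -8 d were left, PSMA5 and PSME4. PSMG2 was 0.19 (adjusted p = 0.0972), PSMD2 0.14 (adjusted p = 0.0713) and PSMD1 0.11 (adjusted p = 0.34).

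**Figure D2:**
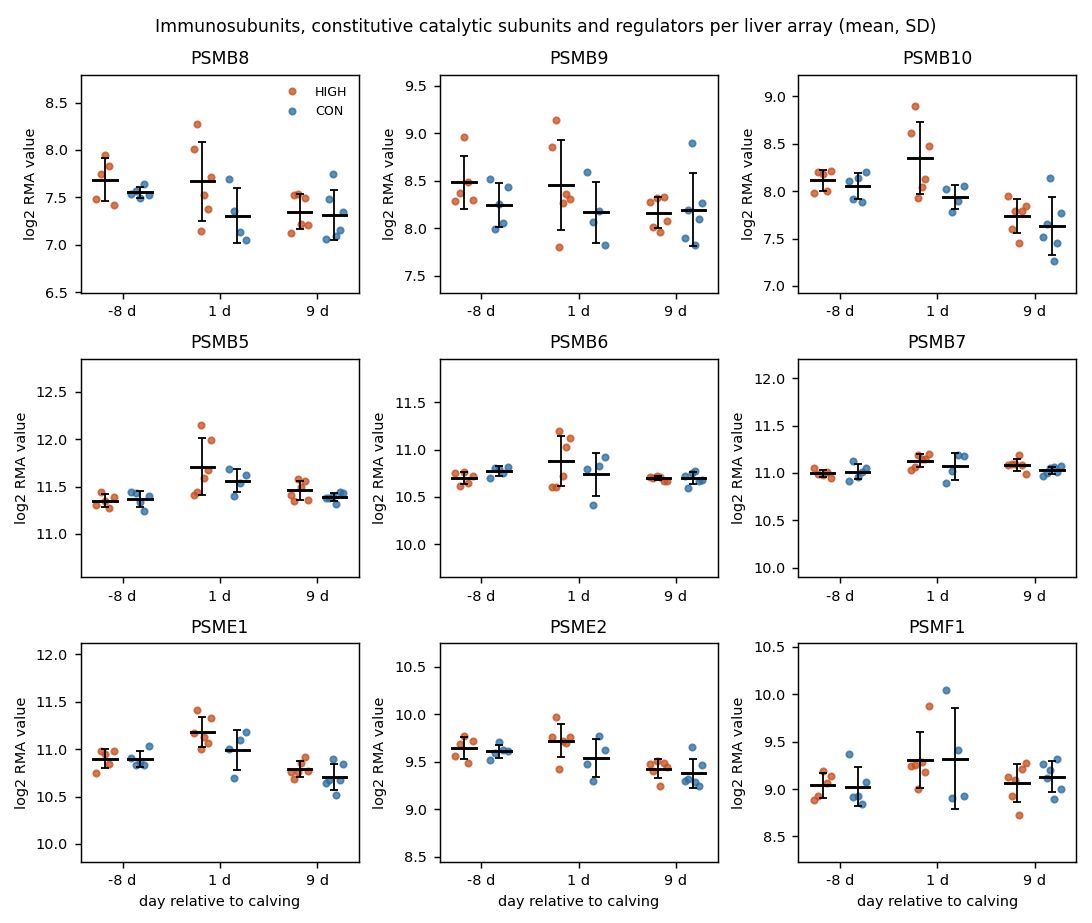
Log2 RMA values of 3 immunosubunits (top), the constitutive subunits they replace (middle) and the regulators PSME1, PSME2 and PSMF1 (bottom) by day, with HIGH livers left of CON livers; points are arrays, and black lines are the group mean and SD. All panels span the same log2 height: PSMB10 sits lowest at 9 d in both diets (7.74 ± 0.18 in HIGH and 7.63 ± 0.30 in CON), and PSMB5 reaches 12.15 in a HIGH liver at 1 d.

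Between 1 d and 9 d, 8 of the 40 genes fell and 1 rose, against 6.99% and 6.11% of all probe sets (10% and 7.44% of genes). The lower genes were PSMB10, both PA28 subunits, 2 ATPases, PSMB5, PSMB4 and PSME3IP1. The median over the 40 genes was -0.06 and over all genes -0.01.

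PSMB10 had the largest change of the 40 genes in this comparison, -0.46 (SE 0.09, adjusted p = 0.00109), and was lower in 9 of 10 cows. PSME1 fell by 0.34 (SE 0.06, adjusted p = 6.29e-05), in 10 of 10 cows, and PSME2 fell by 0.23 (SE 0.06, adjusted p = 0.00698), in 8 of 10 cows. With the cows of all 3 days PSME2 missed the threshold (-0.20, adjusted p = 0.13). PSMB8 (-0.16, SE 0.11, adjusted p = 0.389) and PSMB9 (-0.13, SE 0.13, adjusted p = 0.576) did not pass, and PSMB8 was lower in 5 of 10 cows.

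PSMC3, an ATPase of the base, fell by 0.22 (SE 0.06, adjusted p = 0.00531), in 10 of 10 cows. PSMC3 at -8 d was 10.18, 10.30, 9.99, 10.17 and 10.31 in HIGH livers, against 10.22, 10.06, 10.24, 10.11 and 10.14 in CON livers. PSMC3 at 1 d was 10.17 to 10.43 with a median of 10.19 in HIGH livers, against 10.55, 9.97, 10.39 and 10.15 in CON livers. PSMC3 at 9 d was 9.74 to 10.20 with a median of 10.13 in HIGH livers, against 9.90 to 10.10 with a median of 9.95 in CON livers. One HIGH liver at 9 d, at 9.74, lay below all others. The CON livers of replicates 2 to 5 at 9 d (9.94, 9.95, 9.90 and 9.94) also lay below the lowest liver at 1 d, 9.97. The other livers at 9 d lay inside the range of 1 d. PSMC5, another ATPase, fell by 0.20 (SE 0.06, adjusted p = 0.0217), in 9 of 10 cows, and its second probe set fell by 0.18 (adjusted p = 0.0124), as did that of PSMC6 by 0.20 (adjusted p = 0.0231), where the one used gave 0.03. Leaving out CON 1 d replicate 3 ended the PSMC5 call (adjusted p = 0.0665). PSMB5 fell by 0.21 (SE 0.06, adjusted p = 0.018), being lower in 9 of 10 cows and equal in 1. That call ended with the compared groups alone (-0.21, adjusted p = 0.0505) and with the cows of all 3 days (-0.23, adjusted p = 0.062). PSMB6 (-0.11, adjusted p = 0.249) and PSMB7 (-0.04, adjusted p = 0.479) did not pass. PSMB4, a structural beta subunit, fell by 0.15 (SE 0.04, adjusted p = 0.0151), in 9 of 10 cows, and missed the threshold without CON 1 d replicate 1 (adjusted p = 0.0566). PSME3IP1 fell by 0.24 (SE 0.05, adjusted p = 0.00113), in 9 of 10 cows. PSMD1 was the gene that rose, by 0.17 (SE 0.05, adjusted p = 0.0155), in 9 of 10 cows, and it did not pass with the cows of all 3 days (0.13, adjusted p = 0.183).

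**Figure D3:**
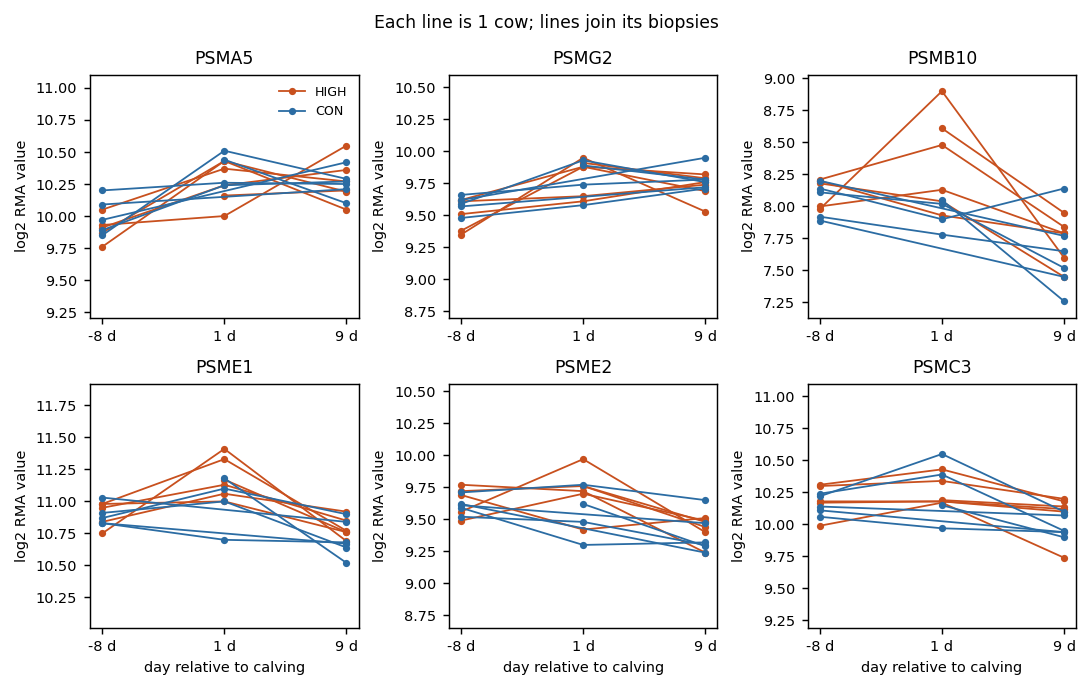
Log2 RMA values of 6 genes on each day, 1 line per cow, HIGH in orange and CON in blue. PSMA5 and PSMG2 end above their -8 d value in 10 of 10 cows, PSME1 and PSMC3 end below their 1 d value in 10 of 10, and PSMB10 does so in 9 of 10.

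Markers of other cells and the EEF1A1 measure of RNA moved between the same days. Among all genes, 16.5% were higher and 12.3% lower at 1 d against -8 d. The shares were 7.79% and 5.08% at 9 d against -8 d, and 7.44% and 10% at 9 d against 1 d. Several of the marker counts below are small beside these shares. Against -8 d, 5 of 14 T and NK cell markers were lower and none higher at 1 d, 4 of 6 neutrophil markers were higher and none lower, and of the 11 Kupffer cell and macrophage markers 1 was higher and 1 lower. From there to 9 d, 1 T and NK cell marker rose, 3 neutrophil markers fell and none of the Kupffer cell and macrophage markers passed. In the comparison of 9 d with -8 d, which holds the PSMB10 and PSME2 calls, 1 T and NK cell marker (CD2) was lower, 1 neutrophil marker (LTF) was higher and no Kupffer cell or macrophage marker passed. The list mean of the T and NK cell markers at 9 d had a median of 5.97 in HIGH livers and 5.97 in CON livers, against 6.13 and 6.06 at -8 d. The EEF1A1 3' minus 5' value was lowest at 1 d, when PSMA5, PSMB5 and PSME1 were highest. Of the other marker lists, B and plasma cells (5 genes) and dendritic cells (2 genes) had no call on any day. Endothelial markers (9 genes) had 1 lower at 1 d against -8 d and 1 higher at 9 d against 1 d, and stellate cell and fibroblast markers (9 genes) had 2 lower, then 1 higher, with 1 lower at 9 d against -8 d. Erythroid markers (5 genes) had 2 lower at 9 d against either earlier day, and cholangiocyte markers (5 genes) had 2 lower at 1 d against -8 d. Hepatocyte markers (11 genes) had 4 higher and 4 lower at 1 d against -8 d, 2 and 2 at 9 d against -8 d, and 2 and 3 at 9 d against 1 d. The part of these cells and of RNA integrity in the results was not tested.

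Whether an immunosubunit and the subunit it replaces changed unequally was tested on their difference within each array. Over 3 pairs and 6 comparisons, 1 of 18 passed. PSMB10 minus PSMB7 was lower at 9 d than at -8 d by a mean change of -0.43 ± 0.24 (SD, n = 10 cows; exact sign-flip test, two-sided, p = 0.00195, adjusted p = 0.0352), lower in 10 of 10 cows, with changes from -0.94 to -0.09. In these cows PSMB10 changed by a mean of -0.38 and PSMB7 by 0.05. The result therefore mostly repeats the fall of PSMB10 on the same arrays. Its exact p is the smallest the sign-flip test can give with 10 cows. With 9 cows the smallest p it can give no longer passes for a single pair, and the adjusted p was 0.0703 on leaving out any of 9 cows; without the cow of CON 9 d replicate 3, 3 of the 18 passed, the others being PSMB8 minus PSMB5 at 9 d against -8 d (-0.37, adjusted p = 0.0469) and PSMB10 minus PSMB7 at 9 d against 1 d (-0.53, adjusted p = 0.0352). The same pair at 9 d against 1 d changed by -0.44 ± 0.46 (n = 10 cows; exact test, p = 0.0156, adjusted p = 0.117), lower in 9 of 10 cows. PSMB8 minus PSMB5 changed by -0.32 ± 0.34 at 9 d against -8 d (n = 10 cows; exact test, p = 0.0195, adjusted p = 0.117), lower in 8 of 10 cows. PSMB9 minus PSMB6 changed by -0.11 ± 0.47 there (exact test, adjusted p = 0.865).

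The diet comparisons ask whether prepartum feeding altered the genes on each day. No gene of the family passed in any of the 5 diet comparisons (limma, Benjamini-Hochberg). Over all probe sets, 0% passed at -8 d, 0.00416% (1 probe set) at 1 d and 0% at 9 d, and 0% passed for diet by time at 1 d and at 9 d. At an unadjusted p under 0.05, the 40 genes gave 1 before calving (-8 d), 4 at 1 d and 0 at 9 d, and for diet by time 0 at 1 d and 1 at 9 d, where all probe sets gave 4.27%, 8.38%, 3.39%, 7.17% and 3.29% in the same order.

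At 1 d the largest HIGH minus CON differences were in the immunosubunits. PSMB10 averaged 8.35 ± 0.38 in HIGH livers (SD, n = 6) and 7.94 ± 0.12 in CON livers (n = 4), a difference of 0.41 (95% interval 0.10 to 0.72, adjusted p = 0.467). PSMB8 averaged 7.67 ± 0.42 in HIGH livers and 7.31 ± 0.29 in CON livers, a difference of 0.37 (0.01 to 0.72, adjusted p = 0.575). PSMB9 averaged 8.46 ± 0.48 in HIGH livers and 8.17 ± 0.32 in CON livers, a difference of 0.29 (-0.13 to 0.71, adjusted p = 0.741). Within HIGH the livers were spread over more than 1 log2 unit for PSMB8 and PSMB9, and the lowest of them lay inside the CON range for PSMB8 and just below it for PSMB9. Without 1 array the PSMB10 difference ran from 0.29 to 0.50, that of PSMB8 from 0.24 to 0.50 and that of PSMB9 from 0.14 to 0.43, lowest in each case without HIGH replicate 2. PSME1 and PSME2 differed by 0.18 each (adjusted p = 0.585 and 0.622).

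PSMD6 had the smallest p of the family at 1 d. PSMD6 at -8 d was 8.56, 8.84, 8.89, 8.66 and 8.94 in HIGH livers, against 8.83, 8.88, 9.01, 8.81 and 8.84 in CON livers. PSMD6 at 1 d was 8.75 to 9.00 with a median of 8.86 in HIGH livers, against 9.00, 8.98, 9.40 and 9.22 in CON livers. PSMD6 at 9 d was 8.86 to 9.05 with a median of 8.92 in HIGH livers, against 8.85 to 9.10 with a median of 8.94 in CON livers. The HIGH livers reached 9.00 at 1 d and the lowest CON liver was 8.98, so the groups barely overlapped on that day. The difference was -0.28 (95% interval -0.45 to -0.11, adjusted p = 0.36). The gene's second probe set, whose mean of 4.46 lay below the array medians, gave 0.22 (adjusted p = 0.724), with the opposite sign.

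At -8 d the genes with the smallest unadjusted p were PSMC4, an ATPase, at -0.21 (95% interval -0.40 to -0.02, adjusted p = 0.9996), PSME4 at -0.17 (-0.39 to 0.04) and PSMB9 at 0.26 (-0.15 to 0.67). PSMB8 was 0.15 (-0.20 to 0.49) and PSMB10 0.08 (-0.22 to 0.38) on that day. By 9 d the 3 immunosubunits were between -0.03 and 0.11, with intervals reaching from -0.41 to 0.38. Those of the standard catalytic subunits were narrower: PSMB7 was 0.06 (-0.04 to 0.16), PSMB5 0.07 (-0.11 to 0.24) and PSMB6 0.00 (-0.18 to 0.18). The genes with the smallest unadjusted p at 9 d were PSMD13, a lid subunit, at 0.11 (-0.01 to 0.23), PSMG1 at 0.11 (-0.02 to 0.24) and PSMD2 at 0.07 (-0.04 to 0.18). Diet by time is the HIGH minus CON difference on a later day less that at -8 d. At 1 d it was 0.33 for PSMB10 (95% interval -0.07 to 0.74, adjusted p = 0.771), 0.22 for PSMB8 (-0.25 to 0.68) and 0.03 for PSMB9 (-0.53 to 0.58). PSMB6 (0.23), PSMC4 (0.23) and PSMD10 (0.25) had the smallest unadjusted p there, with adjusted p from 0.746 to 0.749. At 9 d it was 0.26 for PSMC4 (0.02 to 0.51, adjusted p = 0.9998), 0.11 for PSMB3, a structural beta subunit (-0.07 to 0.29), 0.09 for PSMD2 (-0.06 to 0.24) and -0.30 for PSMB9 (-0.82 to 0.22).

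**Figure D4:**
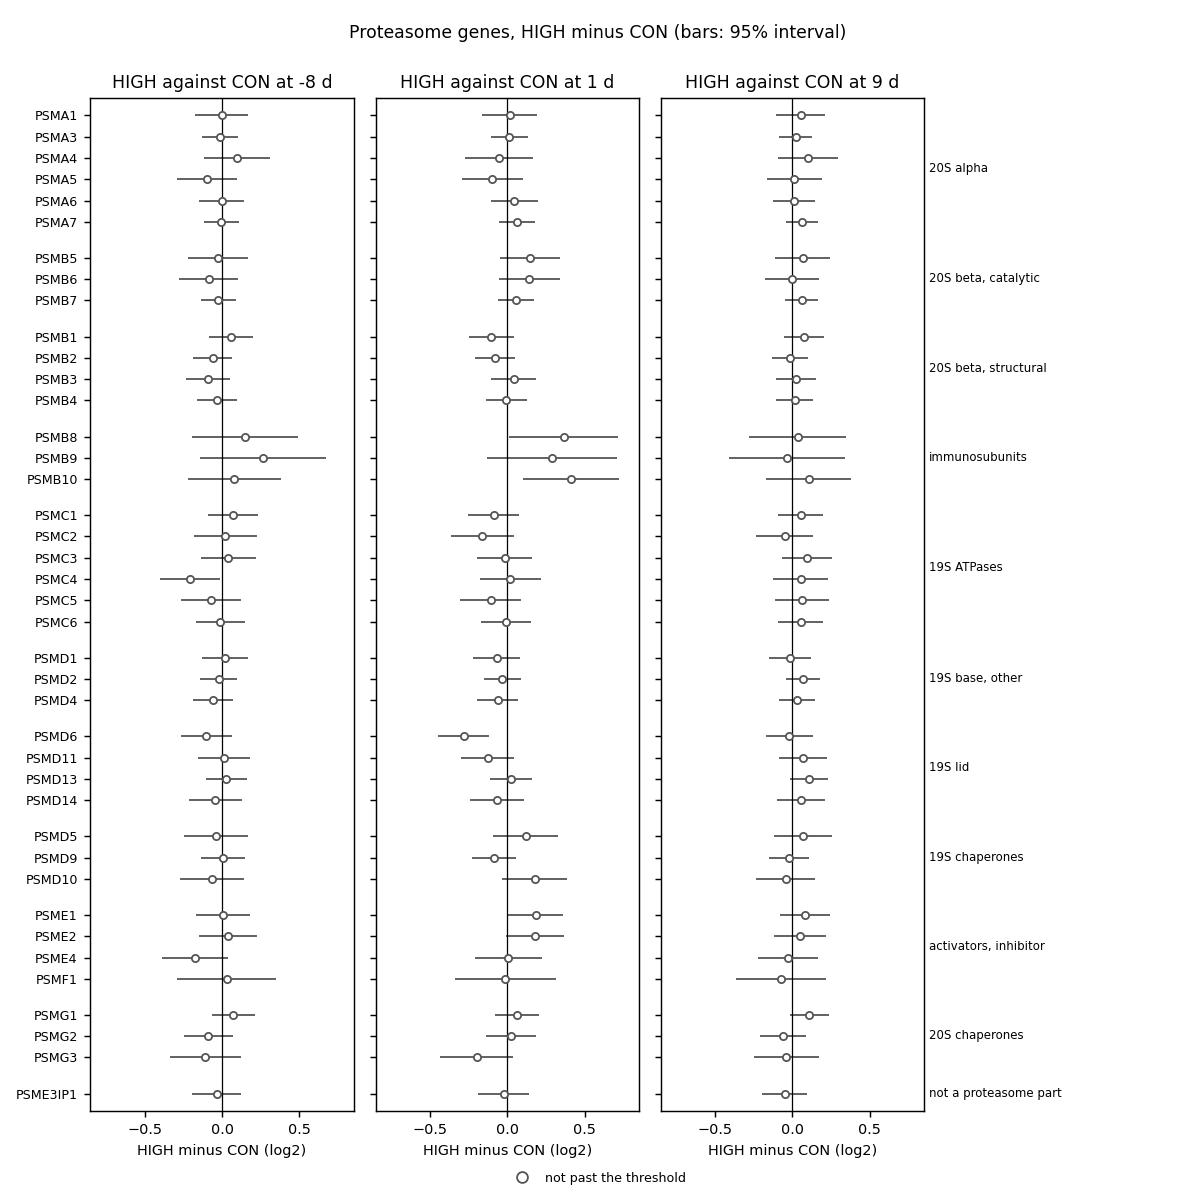
HIGH minus CON difference (log2) for each of the 40 genes on each day, with 95% intervals; no gene passed the threshold. PSMB9, PSMB8, PSMF1 and PSMB10 have the widest intervals, and at 1 d the 3 immunosubunits have the largest positive differences (0.29 to 0.41), and PSMD6 is the lowest gene at 1 d, at -0.28.

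The high values of the immunosubunits fell in a few livers. At 1 d the HIGH livers of replicates 1 and 2 had PSMB8 at 8.01 and 8.27, PSMB9 at 8.86 and 9.14, and PSMB10 at 8.61 and 8.90, and these were the highest HIGH values of each gene on that day. The same livers had the highest TAP1 values of all 32 arrays, 7.87 and 7.75 (TAP1 carries peptides to MHC class I and shares a promoter region with PSMB9 in human). In the cow of replicate 2, PSMB10 was 7.98 at -8 d, 8.90 at 1 d and 7.6 at 9 d. At -8 d, HIGH replicate 3 had the highest PSMB8 (7.95), PSMB9 (8.96) and interferon list mean (7.45) of that day's 10 livers, with PSMB10 at 8.18, and its PSMB9 was above that of HIGH replicate 1 at 1 d. At 9 d, CON replicate 3 had the highest value of that group for PSMB8 (7.75), PSMB9 (8.90), PSMB10 (8.14), PSME1 (10.90) and PSME2 (9.65). The cows' status beyond diet and day was not given in the sources used here.

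The interferon list (25 genes of response regulators and targets) had its own high livers. Its mean per array ran from 7.13 to 7.72 with a median of 7.62 in HIGH livers at 1 d, against 7.06, 7.13, 7.27 and 7.76 in CON livers. The 2 HIGH livers above had list means of 7.71 and 7.72. HIGH replicate 6 at 1 d was close to them at 7.69, with PSMB8 at 7.71, PSMB9 at 8.31, PSMB10 at 8.48 and TAP1 at 7.16. HIGH replicate 4 at 1 d had a list mean of 7.54, with PSMB8 at 7.52, PSMB9 at 8.26 and PSMB10 at 8.04. CON replicate 1 at 1 d, the highest array of all for this list at 7.76, had PSMB8 at 7.69, PSMB9 at 8.59 and PSMB10 at 8.02. For PSMB8 and PSMB9 these were the highest CON values on that day, and for PSMB10 another CON liver was higher, at 8.05. At 9 d CON replicate 3 had a list mean of 7.44, the highest of its group. The T and NK cell list stood at 5.75 and 6.17 in the HIGH livers of replicates 1 and 2 at 1 d. The latter was the highest of that day. The neutrophil list stood at 7.75 and 8.70 in these livers, the latter the highest of all arrays. The Kupffer cell and macrophage list stood at 9.77 and 10.14. The part of these cells in the immunosubunit values was not tested.

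**Figure D5:**
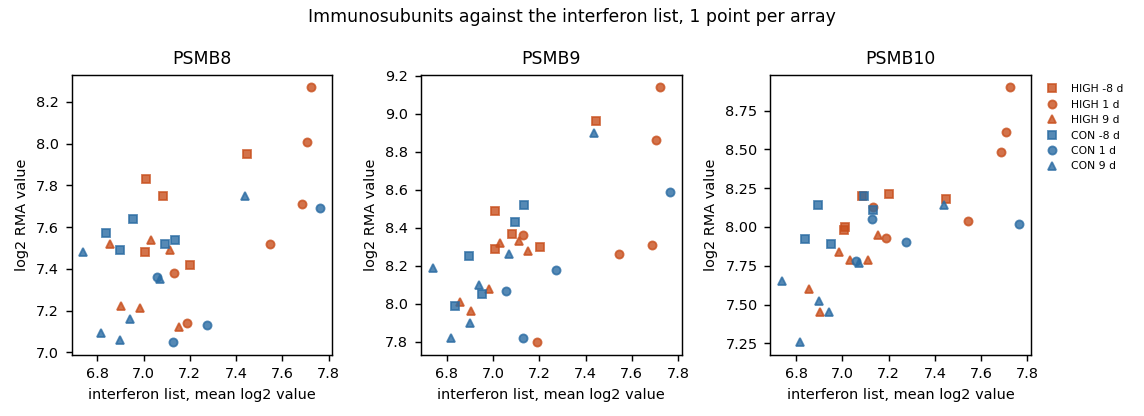
Log2 RMA value of each immunosubunit against the mean log2 value of the interferon list, 1 point per array; colour marks diet and shape marks day, and arrays of 1 cow are not independent. The upper right holds HIGH livers at 1 d (PSMB10 at 8.61 and 8.90, list means 7.71 and 7.72), and a CON liver at 1 d lies farthest right at 7.76 with PSMB10 at 8.02. Another HIGH liver at 1 d, with a list mean of 7.69, had PSMB8 at 7.71, PSMB9 at 8.31 and PSMB10 at 8.48.

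Lists of neighbouring pathways gave the setting of these changes. Over all genes, 16.5% were higher and 12.3% lower at 1 d against -8 d. These shares were 7.79% and 5.08% at 9 d against -8 d, and 7.44% and 10% at 9 d against 1 d. Members of endoplasmic reticulum-associated degradation, which feeds misfolded secretory proteins to the proteasome, rose at 1 d: 11 of 15 were higher and 1 was lower against -8 d, with a median of 0.35. UBE2G2, a ubiquitin-conjugating enzyme of that route, rose by 1.03 (SE 0.11, adjusted p = 6.17e-08), SEL1L, the scaffold of its ligase, by 0.61, and DERL2, part of the channel, by 0.39, while the lectin OS9 fell by 0.22. Against 1 d, 9 of the 15 were lower at 9 d and none higher, among them SEL1L (-0.58), UBE2G2 (-0.59), DERL2 (-0.37) and DERL3 (-0.35). Against -8 d, 1 was higher at 9 d (UBE2G2, 0.44) and 2 were lower (UFD1, -0.21, and OS9, -0.17).

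Of 11 other proteasome parts and helpers, 4 were higher and 1 lower at 1 d against -8 d, with a median of 0.05. USP14 (0.24) and UCHL5 (0.18), both deubiquitinases that bind the 19S particle, rose, as did ZFAND2A (0.39), a stress-induced proteasome-binding protein. ZFAND5, a related protein that activates the proteasome, fell by 0.49 (SE 0.10, adjusted p = 9.03e-04) and rose by 0.37 at 9 d against 1 d, the single call of the list there. ZFAND2A (0.30) was the single call at 9 d against -8 d. Of 10 genes of ubiquitin supply and of the NRF1 route (NFE2L1 is the transcription factor that renews proteasome genes when activity is low), 2 were higher and 4 were lower at 1 d against -8 d. VCP, the segregase that pulls proteins to the proteasome, rose by 0.18 and the chaperone HSPA8 by 0.28, whereas the shuttle proteins UBQLN2 (-0.24) and UBQLN4 (-0.18) fell. NFE2L1 did not pass in any of the 3 day comparisons. At 9 d, HSPA8 was higher than at -8 d (0.34) and UBQLN2 was higher than at 1 d (0.27), each the single call.

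In the MHC class I route, the genes that rose at 1 d were chaperones of the endoplasmic reticulum and not the peptide transporter. Of 11 genes, 3 were higher: PDIA3 (0.68), CALR (0.99) and CANX (0.52), which fold many glycoproteins besides class I. TAP1 was 0.12 (SE 0.13, adjusted p = 0.571), TAP2 was 0.15 (SE 0.13, adjusted p = 0.463) and B2M was -0.02 (SE 0.05, adjusted p = 0.792). Later, 4 were lower at 9 d than at 1 d: PDIA3 (-0.73), CALR (-1.06), ERAP2, an aminopeptidase that trims peptides (-0.32), and CANX (-0.23). In the comparison of 9 d with -8 d CANX (0.29) was the single call, TAP1 was -0.09 (adjusted p = 0.731) and B2M was -0.01 (adjusted p = 0.948).

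Of the 25 interferon genes, 10 were higher and 1 was lower at 1 d against -8 d (median 0.29), among them USP18 (0.99, adjusted p = 1.22e-06), IFIT5 (0.54), ISG15 (1.98) and IRF7 (0.50). By 9 d, 12 had fallen relative to 1 d and none had risen (median -0.34), among them IRF7 (-0.60), USP18 (-0.81), IRF9 (-0.59) and ISG15 (-1.86). Relative to -8 d, 2 were lower at 9 d, SOCS3 (-0.28) and IRF9 (-0.33), and ISG15 and USP18 did not pass. The immunosubunits had no call at 1 d against -8 d. GBP4 and CXCL10, both inducible by interferon-gamma, were picked after their values were seen and do not stand for all such genes. GBP4 was 0.33 (SE 0.27, adjusted p = 0.419) at 1 d against -8 d. The chemokine CXCL10 was the 1 lower gene of the list, at -1.07 (SE 0.39, adjusted p = 0.0468). PSME1, which is induced with the immunoproteasome, passed as higher in that comparison. CXCL10 stood at 11.03 in HIGH replicate 3 at -8 d, the liver with the highest PSMB8 and PSMB9 of that day, and between 7.05 and 7.91 in the other 9 livers. Without that liver the CXCL10 change was -0.73 (adjusted p = 0.113), and the call ended in 14 of the 20 fits that left out 1 array. At 9 d against -8 d CXCL10 was -0.91 (adjusted p = 0.126).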

How the data were processed

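Liver RNA of 32 biopsies was labelled as biotinylated cRNA and hybridised, 1 array per biopsy, per the labels' protocols. The authors deposited log2 values made with Affymetrix Expression Console 1.1 and RMA, per the submitters' processing notes, and these were used as deposited, with no further scaling. RMA forces arrays to 1 distribution, so a change shared by most genes cannot be seen. Depth does not apply to arrays, and the number of arrays limits the precision. Genes were named from the platform annotation: 13292 probe sets had 1 symbol, 86 several and 10638 none.

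All 24016 probe sets that are not controls (112 controls of 24128 were left out) were fitted with limma 3.58.1 in R 4.3.3: 6 group means, cow as a random block (consensus correlation 0.138), a mean-variance trend in the empirical Bayes step, two-sided tests and Benjamini-Hochberg adjustment over all of them. Of 8 comparisons, 3 were between days, 3 between diets and 2 diet by time. The p-values of all comparisons rest on a residual variance per probe set that was pooled over all groups and days. That variance holds the spread between cows and the spread between arrays within cows, so the diet p-values do not rest on the spread between cows alone. The diet comparisons set different cows against each other, and the day and diet by time comparisons mostly set arrays of the same cows against each other. Cows pair the arrays because the labels give each array's cow. Deviations from group means correlated by 0.323 on average between days of 1 cow (28 pairs, 0.229 to 0.464), against -0.06 between different cows of a diet (142 pairs).

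The immunosubunit pairs were tested by exact sign flips or permutations of cows. Genes named by rule were PSMB5 to PSMB10, PSME1, PSME2, the family's calls with the largest changes (up to 10 each way) or, where none passed, the 3 smallest p, and up to 4 genes of each pathway list. PSMC1 and the livers singled out were chosen after their values were seen. So were pathway genes named beyond that rule, among them TAP1, B2M, NFE2L1, GBP4 and CXCL10. The members and lists (roles, pathways, cell markers) were chosen with earlier results of these data known. Alternatives were leaving out each array, other treatments of cow, array weights, centring, filters and the mean of a gene's probe sets. The script was tested on simulated data. Promoter and protein sequences were not used here.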

Additional observations from a re-analysis of the deposited data

Results flagged for a closer look

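Each liver was compared with the others of its diet and day for 23 genes, and 7 of 138 gene and group combinations held a liver far from the nearest other (gap over range above Dixon's 95% critical value). Chance marks about 1 in 20 groups. HIGH 9 d replicate 4 had the highest PSMB4 of its group, 11.89 (next 11.77), and the lowest PSMC3, 9.74 (next 10.10). CON 9 d replicate 5 had the highest PSMD14, 10.54 (next 10.21), and the highest PSMG2, 9.95 (next 9.78). CON 9 d replicate 2 had the highest PSMC5, 9.84 (next 9.70). HIGH -8 d replicate 1 had the lowest PSMD14, 9.91 (next 10.14), and HIGH 1 d replicate 6 the highest PSMF1, 9.88 (next 9.28). No immunosubunit was among them, and no diet by time effect passed.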

How the results depend on the processing

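The counts of 12, 7 and 9 genes past the threshold (1 d and 9 d against -8 d, then 9 d against 1 d) ran from 9 to 14, 6 to 8 and 8 to 11 when 1 array was left out, and the diet counts stayed at 0. With no replicate block they were 11, 6 and 9, with cow as a fixed replicate block 11, 7 and 10, and the replicate block changed no other call named than those of PSMF1 (0.28, adjusted p = 0.0893 without it), PSMG1 (adjusted p = 0.0678 with cow fixed) and PSMD1. With only the 8 cows of all 3 days, which are fewer samples, they were 7, 2 and 7. Of the 18 immunosubunit tests, 0 to 3 passed on leaving out a cow. The reversals were of differences that passed in no setting, and the cause was not tested. The largest main value among them was 0.15 (PSMB9 minus PSMB6, HIGH minus CON at 1 d). With only those 8 cows, PSME2 at 1 d against -8 d was -0.011, HIGH minus CON at 9 d was -0.076 for PSMB10, -0.034 for PSMB8 and -0.0073 for PSME2, and diet by time was -0.1347 for PSMB9 (1 d), -0.1333 for PSMB10 and -0.0467 for PSME2 (9 d). With the fixed replicate block, PSME2 at 1 d against -8 d was -0.0024 and diet by time was -0.082 for PSMB9 (1 d) and -0.0303 for PSMB10 (9 d). PSMB6, HIGH minus CON at 9 d, was 0.0 without the block, -0.008 with array weights and -0.0042 with centred arrays, where PSME1 at -8 d was -0.0075. Leaving out 1 array turned the sign within these ranges: at 1 d against -8 d, PSMB10 -0.0035 to 0.1011, PSMB9 -0.1274 to 0.0148 and PSME2 -0.0289 to 0.0422. For HIGH minus CON they were PSMB7 -0.0428 to 0.0066 and PSME1 -0.0217 to 0.0461 (-8 d), and PSMB6 -0.0142 to 0.0118, PSMB8 -0.0254 to 0.1277 and PSMB9 -0.1082 to 0.1088 (9 d). For diet by time they were PSMB9 -0.1231 to 0.1721 (1 d), and PSMB10 -0.0429 to 0.1279 and PSME2 -0.031 to 0.0574 (9 d). Leaving out 1 cow gave PSMB8 minus PSMB5 -0.0544 to 0.1522 (9 d against 1 d) and -0.0873 to 0.0537 (HIGH minus CON, 9 d). It gave PSMB9 minus PSMB6 -0.1533 to 0.0944 (9 d against 1 d), -0.0455 to 0.3425 (HIGH minus CON, 1 d) and -0.1213 to 0.0987 (9 d). PSMB10 minus PSMB7 ran from -0.19 to 0.0071 (1 d against -8 d) and from -0.036 to 0.142 (HIGH minus CON, 9 d). The fits that left out 1 array kept the correlation of the full fit.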
